A study of Rattus norvegicus with 23 samples.

Results

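Lysosomes are acidic compartments in which cathepsins, glycosidases and lipid-degrading enzymes break down proteins, sugars and membranes. The proton pump that acidifies them, the V-ATPase, is built from a cytosolic V1 sector that hydrolyses ATP and a membrane V0 sector that carries the protons. In blood, monocytes are rich in lysosomal enzymes, B cells use cathepsins to prepare antigens for MHC class II, and maturing red cells discard their lysosomes and other organelles. The genes described here are the probes of an array whose name begins with Atp6v or Lamp or is on a list of cathepsins, hydrolases and lysosomal membrane proteins. The names Ctsa, Ctsl1 and Npc1 of that list matched no probe by the name in the scanner files. The rule matched 57 probes of 48 genes. A probe was kept where its signal was well above background on at least 12 of 23 arrays, and the brightest kept probe stood for each gene. This left 48 probes and 42 genes, out of 20762 features tested in the whole series, of which 10113 carried a gene name. Atp6v1c2, the gene kept with the fewest arrays above background, was so on 18 arrays, and the other 41 were so on all 23. The 6 genes left out were Atp6v1e2, well above background on 7 arrays, Lamp3, on 3 arrays, and Atp6v0a4, Atp6v0d2, Atp6v1b1 and Atp6v1g2.

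The arrays measured RNA of peripheral blood mononuclear cells from Wistar rat pups aged 21 days, 1 pup per array. Control pups were suckled by dams fed standard chow freely, and CR pups by dams whose food was restricted by 20% from day 1 of lactation. The control arrays came from 6 males and 6 females, and the CR arrays from 5 males and 6 females. Each array compared the pup's RNA (Cy5) with 1 pool of all samples (Cy3), with no dye swap, so each level below is a log2 ratio to that pool and cannot be compared between genes. The dams numbered 11 in the control group and 5 in the CR group. Which pup came from which litter is not labelled. The 11 CR pups had at most 5 mothers between them, and p-values here treat every pup as independent, which may make them too small. In bulk RNA of this kind, fewer cells of a type and less RNA per cell cannot be told apart.

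Between 20630 and 24094 probes per array were well above background, with a median Cy5 intensity of 55.6 to 65.8 over a local background of 27 to 30. Markers of monocytes (12 of 16 listed genes), B cells (9 of 14) and T cells (14 of 15) were measured well above background, as were 7 of 10 markers of red cell precursors, 7 of 10 of platelets and 8 of 13 of neutrophils, cells that a mononuclear preparation should hold in small numbers. Of the neutrophil markers, Mmp8, Ltf and Cxcr2 had probes that were not well above background, as did Ms4a2, Fcer1a, Cpa3 and Gata2 of the 9 basophil, eosinophil and mast cell markers, of which 5 were measured. Among the measured markers of these lists, Ngp (neutrophil) and Epx (eosinophil) were well above background on only 10 arrays each. The mean log2 ratio of the red cell markers ran from -2.38 on control male 2 to 2.42 on CR female 5, the widest range of the 9 marker lists.

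Many lysosomal genes carry an E-box-like motif in their promoters that is bound by TFEB, the transcription factor that switches on lysosome formation when nutrients are short. RefSeq promoter windows of rat build GRCr8, from 250 bases before to 50 after the start of each gene, were found for 32 of the 42 genes. The core CACGTG, which reads the same on both strands, lay in 7 of these 32 windows (21.9%) and in 6.42% of all 33469 windows of the same length. The longer form TCACGTGA, also a palindrome and always holding the core, lay in 4 of 32 (12.5%) and in 0.777% of all. The 33469 windows were not limited to genes measured here and were counted by window, whereas the 32 were counted by gene. The 4 genes with the longer form are Ctsd, encoding the main aspartic protease of the lysosome, Lamp1, encoding a heavily glycosylated protein of the lysosomal membrane, and the V0 genes Atp6v0d1 and Atp6v0e1. Their sequences are shown because a reader can see in them how close to the start the motif lies and that Lamp1 holds it more than once. The capitals mark TCACGTGA. The first 3 lines give the 250 bases before the start, 5′ to 3′ on the minus strand: chr19:50357249-50357498 for Atp6v0d1, chr1:206968822-206969071 for Ctsd and chr16:83075064-83075313 for Lamp1. The fourth gives 30 bases around the motif of Atp6v0e1, which lies past the start, at chr10:17007115-17007144 on the minus strand.
Atp6v0d1: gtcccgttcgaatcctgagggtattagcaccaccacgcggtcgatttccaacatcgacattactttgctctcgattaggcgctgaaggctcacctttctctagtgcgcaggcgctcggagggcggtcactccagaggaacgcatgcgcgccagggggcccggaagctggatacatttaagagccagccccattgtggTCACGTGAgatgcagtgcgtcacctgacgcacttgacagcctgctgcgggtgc
Ctsd: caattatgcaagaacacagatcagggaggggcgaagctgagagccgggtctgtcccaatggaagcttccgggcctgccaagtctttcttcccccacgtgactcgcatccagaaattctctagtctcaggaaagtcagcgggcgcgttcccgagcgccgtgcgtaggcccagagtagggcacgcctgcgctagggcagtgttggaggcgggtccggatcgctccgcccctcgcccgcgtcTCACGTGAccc
Lamp1: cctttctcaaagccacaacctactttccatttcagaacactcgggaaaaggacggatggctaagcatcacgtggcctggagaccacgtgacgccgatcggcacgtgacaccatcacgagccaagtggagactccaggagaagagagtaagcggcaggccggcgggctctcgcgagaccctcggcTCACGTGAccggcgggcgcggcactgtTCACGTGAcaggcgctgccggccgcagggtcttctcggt
Atp6v0e1: tcgcgcgccggTCACGTGAgcctctgttga
Lamp1 held the longer form at 2 places and the core at 5. In Ctsd the longer form began 11 bases before the start and in Atp6v0d1 53 bases before it. A match is a stretch of letters and not a measured binding site. The diet differences of these 4 genes, as the mean of the sexes, were 0.23 ± 0.22 (SE) for Ctsd, -0.05 ± 0.05 for Lamp1, -0.09 ± 0.07 for Atp6v0d1 and -0.06 ± 0.07 for Atp6v0e1, so the genes with the longer motif lay on both sides of 0, each within 2 standard errors of it. The value of Ctsd was 0.07 without CR female 5.

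Whether the dam's diet changed the lysosomal genes of her pups was tested for every feature with limma's moderated test and Benjamini-Hochberg adjustment over all features. In sons, 0 of the 42 genes passed an adjusted p of 0.05, against 0% of all features. At an unadjusted p under 0.05, 4 genes were lower in CR males (9.52%, against 3.56% of all features) and 0 were higher (against 2.97%). Of the 42 genes, 24 had a lower mean in CR males, and their median log2 difference was -0.027, against -0.003 over all features. In daughters, 0 genes passed (0% of all features), 6 were lower at an unadjusted p under 0.05 (14.3%, against 3.2%) and 0 were higher (against 2.92%). A lower mean was seen in CR females for 32 of 42 genes, with a median of -0.076 against 0.005 over all features. For the mean of the sexes, 0 passed (0% of all features), 7 were lower at an unadjusted p under 0.05 (16.7%, against 4.77%) and 0 were higher (against 2.95%). There, 29 of 42 were lower, with a median of -0.041 against 0.004. Median centring of the arrays in place of loess moved the median of the male comparison to -0.223, of the female one to -0.182 and of their mean to -0.185. The median of all features moved with it, to -0.104, -0.037 and -0.072. The smallest adjusted p of any of these genes in limma was 0.679 for sons, 0.771 for daughters and 0.393 for both sexes averaged. The genes were chosen with earlier results of these data known, so the unadjusted counts are given as a description.

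Laptm4b, encoding a membrane protein of late endosomes and lysosomes, had the smallest p in both sexes. Its log2 ratios in control males ran from 0.10 to 0.35 with a median of 0.19, and the 5 CR males read 0.02, 0.16, -0.14, -0.02 and -0.09. Control females ran from 0.09 to 0.35 (median 0.20) and CR females from -0.15 to 0.09 (median 0.05). CR males lay low with 1 array among the controls, and the female groups did not overlap, though the nearest control and CR female both read 0.09 after rounding. Of the 42 genes, Laptm4b was the only 1 whose CR females all lay below the controls (0.188% of all features did so) and 0 lay wholly above them (0.125%). In males 0 genes lay wholly below (0.318%) or above (0.217%). Males differed by -0.22 ± 0.06 (SE, n = 5 and 6) and females by -0.20 ± 0.06 (n = 6 and 6). The average over the sexes was -0.21 ± 0.04, with an unadjusted p of 8.8e-05 and an adjusted p of 0.393 in limma. An exact two-sided permutation test within a sex gave p = 0.011 in males and p = 0.0022 in females. Adjustment over 40 such tests gave 0.18 and 0.088. These were the tests of the 20 genes among the 4 of smallest limma p in a direction of a contrast. Because the same arrays chose these genes, the adjusted values may be too small. The gene was lower in CR pups on 4 of 4 slides that held both male groups and on 6 of 6 that held both female groups. Its probe (rn4 chr7:69688059-69690784) was dim, brighter on average than 31.6% of features, and the size of its difference moved with the setting. It was -0.39 for the mean of the sexes with an offset of 10 in place of 50, and -0.78 with the scanner software's log ratio, with adjusted p of 0.24 and 0.387 in limma. Why it moved was not tested.

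**Figure D1:**
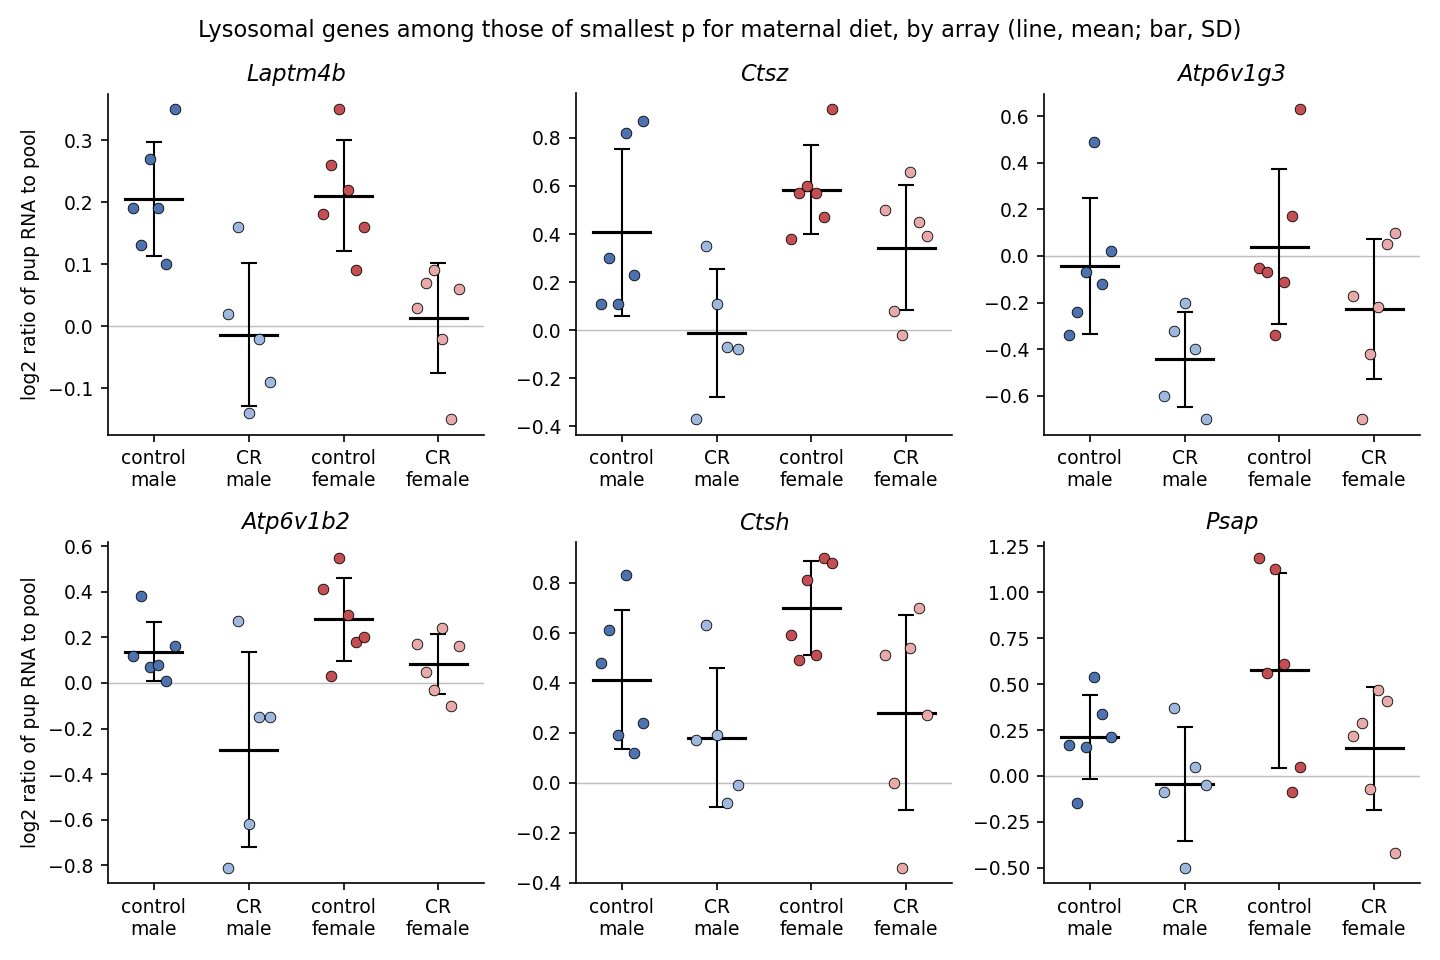
Log2 ratio of pup RNA to the pool (y axis) for 6 lysosomal genes in the 4 groups (x axis), with 1 point per array, a line at the mean and a bar of 1 SD. Laptm4b is lower in both CR groups, with no overlap between the female groups, whereas the groups overlap for the other 5 genes.

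Among the cysteine cathepsins, 0 of 7 genes (legumain included) passed the test in any diet comparison. Cathepsin Z (Ctsz), a carboxypeptidase, ran from 0.11 to 0.87 (median 0.26) in control males, and the 5 CR males read -0.37, 0.35, 0.11, -0.07 and -0.08. Females ran from 0.38 to 0.92 (median 0.57) in controls and from -0.02 to 0.66 (median 0.42) in the CR group. CR males were low with some overlap, and CR females overlapped the controls widely. CR males differed by -0.42 ± 0.15 and CR females by -0.24 ± 0.15, with an average of -0.33 ± 0.11 (limma, unadjusted p = 0.0049, adjusted p = 0.496). It was lower in CR pups on 4 of 4 slides in males and 4 of 6 in females. Cathepsin H (Ctsh), an aminopeptidase, ran from 0.49 to 0.90 (median 0.70) in control females and from -0.34 to 0.70 (median 0.39) in CR females, with a difference of -0.42 ± 0.16 (limma, adjusted p = 0.789). All 6 control females were at or above 0.49, and 3 of 6 CR females lay below that. In males Ctsh ran from 0.12 to 0.83 (median 0.36) in controls, and the CR arrays read 0.17, 0.63, 0.19, -0.08 and -0.01, a difference of -0.23 ± 0.17. Cathepsin S (Ctss), which trims the invariant chain of MHC class II, ran from 0.04 to 0.38 (median 0.34) in control females and from -0.03 to 0.28 (median 0.14) in CR females, all 6 below the control mean. In males it ran from -0.14 to 0.24 in controls, and the CR arrays read -0.10, 0.46, -0.20, 0.16 and -0.06, on both sides of the controls. Ctss differed by -0.17 ± 0.09 in females and 0.03 ± 0.10 in males, and its second kept probe gave -0.21 and 0.07. Cathepsin C (Ctsc), which activates granule serine proteases, ran from -0.19 to 0.13 in control males and read 0.12, 0.25, -0.13, 0.01 and -0.02 in CR males. Its range was -0.33 to 0.07 in control females and -0.26 to 0.07 in CR females. The groups overlapped widely, with a difference of 0.07 ± 0.06 averaged over the sexes. Legumain (Lgmn), an asparaginyl endopeptidase, differed by -0.02 ± 0.09 on the same average.

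Cathepsin B (Ctsb), an abundant cysteine protease, and cathepsin D (Ctsd) varied more between pups of a group than almost any other feature. The within-group SD of the log2 ratio was 0.754 for Ctsb, above 99.3% of all features, and 0.565 for Ctsd, above 98.3%. Ctsb ran from -1.28 to -0.09 (median -0.55) in control males, and the CR males read 0.70, 0.48, 0.25, -0.60 and -0.80. It ran from -0.71 to 1.17 (median 0.14) in control females, while in CR females it ran from -0.71 to 1.88 (median -0.59) over the 5 arrays that had a value, the spot of the sixth being marked as an outlier by the scanner software. CR female 5 stood far above the others, whose values ended at -0.28. The differences were 0.60 ± 0.42 in males and -0.22 ± 0.42 in females. Without CR female 5 the female difference was -0.70, with an adjusted p in limma of 0.624. With all arrays the adjusted p in limma was 0.861 and 0.961. Ctsd ran from -1.18 to -0.41 (median -0.68) in control males, and the CR males read 0.05, 0.01, -0.24, -0.54 and -0.94. It ran from -0.82 to 0.38 in control females and from -0.83 to 1.40 in CR females, with its highest value also on CR female 5. The groups overlapped in both sexes, with differences of 0.38 ± 0.32 in males and 0.07 ± 0.30 in females. The female difference turned to -0.24 without CR female 5 (limma, adjusted p = 0.815). Cathepsin L (Ctsl) ran from -0.86 to 0.56 in control males, and the CR males read 0.34, -0.93, 0.04, -0.37 and -0.09. In females it ran from -1.11 to -0.09 (median -0.58) in controls and from -0.99 to -0.01 (median -0.31) in the CR group. With a within-group SD of 0.461, its differences of -0.05 ± 0.26 in males and 0.19 ± 0.25 in females were smaller than their errors. The male one turned to 0.14 without CR male 2. The second kept probe of Ctsl gave 0.015 in males and 0.098 in females. Cathepsin E (Ctse), an aspartic protease of endosomes, was steady, with a within-group SD of 0.106 and differences of -0.02 ± 0.07 in males and -0.01 ± 0.07 in females. Tripeptidyl peptidase 1 (Tpp1) differed by -0.16 ± 0.09 in females and -0.04 ± 0.09 in males. Ctsa, encoding the serine carboxypeptidase that protects lysosomal galactosidase, lay outside the rule but was found under an older name through its accession, and differed by -0.10 ± 0.04 for the mean of the sexes (limma, adjusted p = 0.616).

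The 4 glycosidases, which cleave sugars from glycolipids, glycogen and glycosaminoglycans, were all lower on average in CR females, with 0 passing the adjusted test. Beta-glucuronidase (Gusb) ran from -0.02 to 0.41 (median 0.12) in control females and from -0.15 to 0.10 (median -0.06) in CR females, a difference of -0.18 ± 0.08 (limma, unadjusted p = 0.035, adjusted p = 0.806). In males it ran from -0.08 to 0.06 in controls and read 0.09, 0.30, 0.09, -0.18 and -0.20 in the CR arrays, which lay on both sides of the controls. The male difference was 0.05 ± 0.09, and the difference of the diet effects was 0.23 ± 0.12 (limma, adjusted p = 0.955). Acid alpha-glucosidase (Gaa) differed by -0.17 ± 0.12 in males and -0.08 ± 0.11 in females, beta-hexosaminidase A (Hexa) by 0.03 ± 0.13 and -0.16 ± 0.13, and beta-galactosidase (Glb1) by -0.04 ± 0.13 and -0.03 ± 0.13.

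Among the genes of lipid handling, prosaposin (Psap), the precursor of the proteins that present sphingolipids to their hydrolases, ran from -0.09 to 1.19 in control females and from -0.42 to 0.47 in CR females, with a difference of -0.42 ± 0.20 in limma (unadjusted p = 0.045, adjusted p = 0.806). In males it ran from -0.15 to 0.54 (median 0.19) in controls and read -0.09, 0.37, -0.50, 0.05 and -0.05 in the CR arrays, a difference of -0.26 ± 0.21, or -0.14 without CR male 3. Progranulin (Grn), a secreted and lysosomal protein cleaved into granulins, ran from 0.09 to 0.88 (median 0.34) in control females and from -0.41 to 0.22 (median 0.15) in CR females, so that all 6 CR females lay below the control mean. Control males ran from -0.11 to 0.37, and the CR males read -0.14, 0.39, 0.10, -0.21 and -0.13. The difference was -0.36 ± 0.13 in females (limma, adjusted p = 0.771) and -0.04 ± 0.14 in males. Psap was lower in CR pups on 5 of 6 slides in females and 4 of 4 in males, and Grn on 5 of 6 in females and 2 of 4 in males. The cholesterol carrier Npc2, the receptor that brings glucocerebrosidase to the lysosome (Scarb2) and acid ceramidase (Asah1) differed by less than 0.05 in size in either sex, with errors of about 0.1. The dimmer kept probe of Asah1 gave 0.19 in males and -0.03 in females, so its 2 probes differed in males. The palmitoyl thioesterase gene Ppt1 ran from -0.42 to 0.15 (median -0.17) in control females and from -0.13 to 0.28 in CR females, from -0.18 to -0.04 in control males, and read -0.11, 0.16, -0.19, -0.23 and -0.02 in CR males. It differed by 0.15 ± 0.09 in females, or 0.085 without control female 6, and by 0.03 ± 0.09 in males.

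The membrane proteins other than Laptm4b showed no common direction. Lamp1 differed by -0.02 ± 0.07 in males and -0.08 ± 0.07 in females, and Lamp2, the other main lysosomal membrane glycoprotein, by 0.12 ± 0.08 and 0.04 ± 0.08. Lamp2 ran from -0.24 to -0.01 in control males, and the CR males read 0.01, 0.31, -0.20, -0.07 and -0.04, with CR male 2 far above the rest. It ran from -0.13 to 0.21 in control females and from -0.14 to 0.13 in CR females. Laptm4a differed by -0.10 ± 0.11 in males and -0.12 ± 0.10 in females. Laptm5, a protein of blood cells that promotes degradation of antigen receptors, had a value on 19 arrays because of spots the scanner software marked as outliers. Control males ran from -0.37 to -0.02, and the 4 CR males with a value read 0.22, -0.14, -0.12 and -0.09, a difference of 0.18 ± 0.10 (limma, adjusted p = 0.794) that changed sign, to -0.105, under median centring and was 0.098 without CR male 2. The tetraspanin gene Cd63 ran from -0.24 to 1.22 in CR females and from -0.18 to 0.15 in control females. Its difference of 0.29 ± 0.17 in females rested in part on CR female 6, which read 1.22, and was 0.09 without that array. In males it ran from -0.13 to 0.23 in controls, and the CR arrays read 0.03, -0.08, 0.04, -0.11 and -0.39, all below the control mean, a difference of -0.17 ± 0.17. The difference of the diet effects was -0.45 ± 0.24 (limma, adjusted p = 0.955).

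In the V1 sector of the V-ATPase, 0 of 9 genes passed the test. The ATP-binding subunit gene Atp6v1b2 (rn4 chr16:22321029-22321088) ran from 0.01 to 0.38 (median 0.10) in control males, and the 5 CR males read -0.81, 0.27, -0.62, -0.15 and -0.15. Control females ran from 0.03 to 0.55 and CR females from -0.10 to 0.24. The CR males were low with 1 array inside the control range, and the CR females overlapped the controls. Males differed by -0.43 ± 0.14 and females by -0.19 ± 0.13, with an average of -0.31 ± 0.09 (limma, unadjusted p = 0.0031, adjusted p = 0.495). The 2 kept probes of this gene disagreed in size, since the dimmer one gave -0.07 for males, -0.10 for females and -0.08 on average. The stalk subunit gene Atp6v1g3 (rn4 chr13:51475226-51475285) ran from -0.34 to 0.49 (median -0.09) in control males, and the CR males read -0.60, -0.32, -0.20, -0.40 and -0.70. All 5 lay below the control mean, and the groups overlapped. Males differed by -0.40 ± 0.16 and females by -0.26 ± 0.16, with an average of -0.33 ± 0.11 (limma, unadjusted p = 0.0074, adjusted p = 0.515), and it was lower on 4 of 4 slides in males and 6 of 6 in females. Without control female 6 the female difference was -0.15. The paralogous stalk gene Atp6v1g1 differed the other way, by 0.11 ± 0.06 in females and 0.09 ± 0.04 when the sexes were averaged (limma, unadjusted p = 0.056, adjusted p = 0.663). Atp6v1g1 ran from -0.07 to 0.13 in control females and from -0.03 to 0.20 (median 0.12) in CR females, where 5 of 6 arrays lay above the control mean, and from -0.20 to 0.12 in control males, with CR males at 0.05, -0.04, -0.07, 0.07 and 0.09. Atp6v1c1, encoding a subunit that governs the joining of V1 to V0, was narrow in control males, at -0.10 to -0.04, and the CR males read 0.19, 0.07, -0.05, -0.02 and -0.07, with an exact two-sided permutation p of 0.024, or 0.18 after the adjustment over 40 tests. Its female ranges were -0.10 to -0.02 in controls and -0.41 to 0.12 in the CR group, so the CR arrays of both sexes were more spread than the controls. Atp6v1f ran from -0.07 to 0.32 in control males, read -0.24, 0.22, -0.02, 0.19 and 0.08 in CR males, and ran from 0.08 to 0.40 in control females and 0.10 to 0.38 in CR females. The V1 genes Atp6v1c1, Atp6v1c2, Atp6v1d, Atp6v1e1, Atp6v1f and Atp6v1h differed by no more than 0.10 in size in either sex.

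In the V0 sector, all 7 genes were lower on average in CR females and 6 of 7 in CR males, with 0 passing the test. The medians of the 7 were -0.104 in females and -0.043 in males. Atp6v0d1, encoding the subunit that joins the rotor to V1, ran from 0.24 to 0.40 (median 0.34) in control females and from -0.27 to 0.32 (median 0.13) in CR females. All 6 CR females lay below the control mean, and the difference was -0.21 ± 0.09 (limma, unadjusted p = 0.029, adjusted p = 0.806), or -0.13 without CR female 6. In males it ran from -0.12 to 0.41 in controls and read 0.18, 0.37, 0.16, 0.06 and 0.04 in the CR arrays, a difference of 0.02 ± 0.09. The proteolipid ring genes Atp6v0c and Atp6v0b differed by -0.12 ± 0.09 and -0.18 ± 0.14 in females. The large membrane subunit gene Atp6v0a1 differed by -0.08 ± 0.07 in males and -0.10 ± 0.07 in females, and its second kept probe gave -0.19 and -0.21. Atp6v0a2, a paralogue of it, ran from 0.02 to 0.36 in control males, with CR males at -0.08, 0.22, 0.00, 0.18 and -0.12, and from -0.02 to 0.21 in control females and -0.52 to 0.19 in CR females. It differed by -0.10 ± 0.10 and -0.09 ± 0.10, but its second kept probe, well above background on 15 arrays, gave 0.03 and -0.02.

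**Figure D2:**
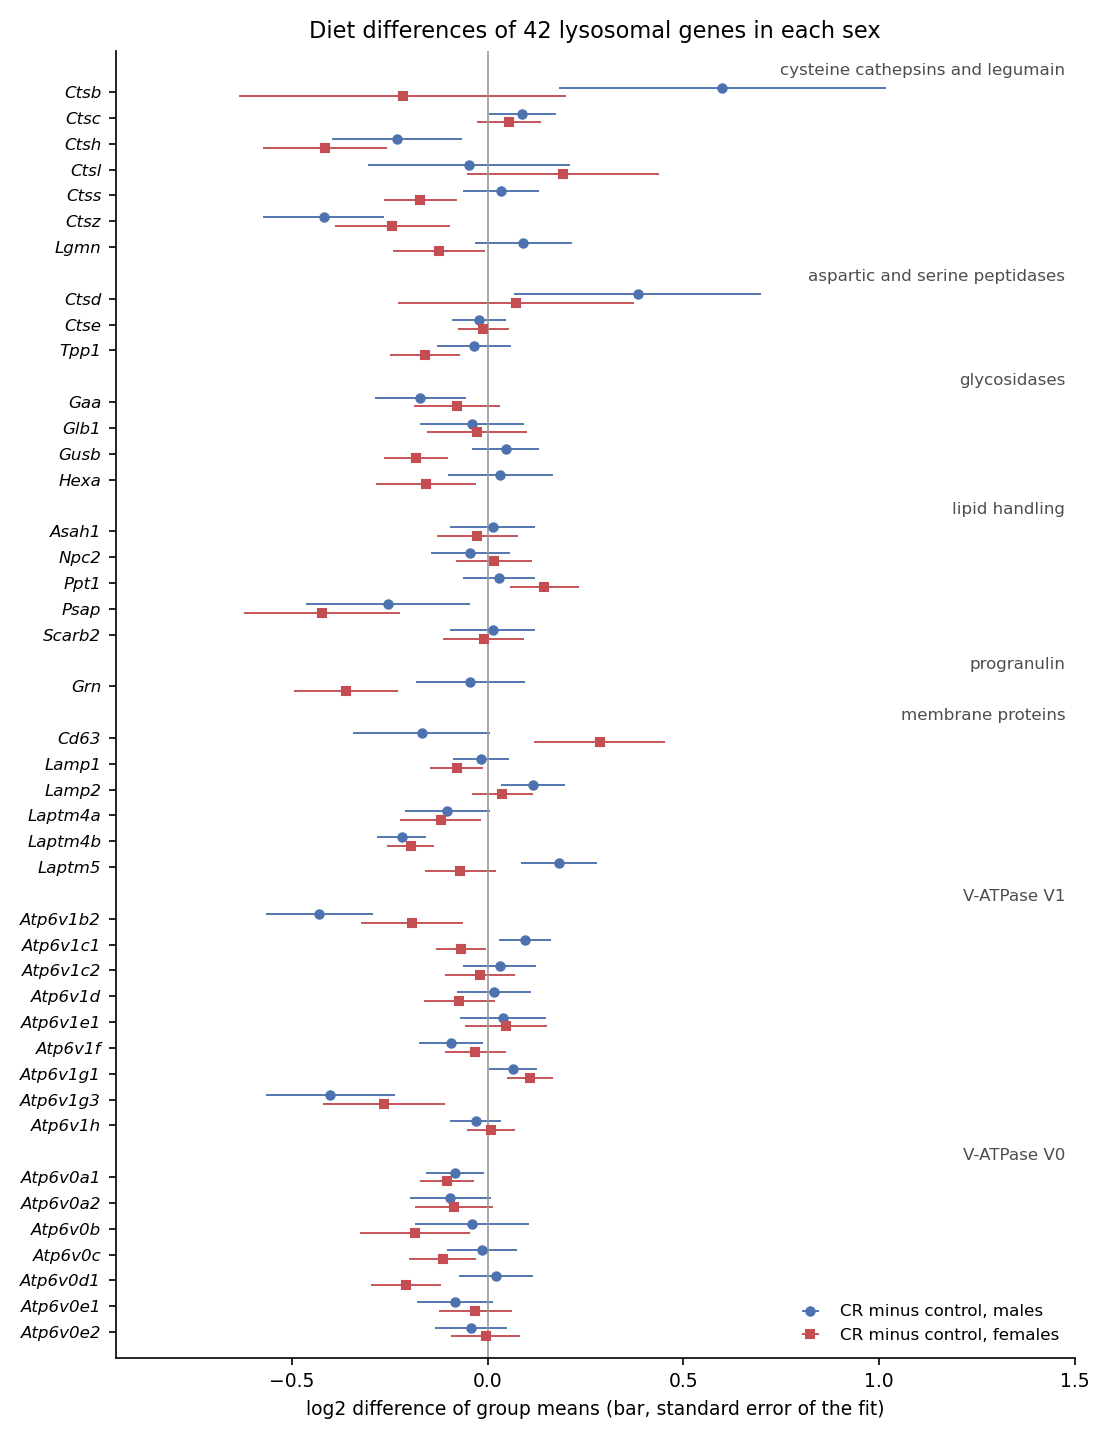
Log2 difference of CR minus control (x axis) with its standard error for each of the 42 genes (y axis, grouped by role), males as circles and females as squares. Most squares lie left of 0, 32 of 42 against 24 of 42 circles, and Ctsb and Ctsd have the widest bars.

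The CR males were not alike over these genes. CR male 2 was the highest of the 5 for 23 of the 41 genes with a value on all 5 arrays, Laptm4b, Ctsz, Ctsh, Grn, Psap and Atp6v1b2 among them, and the lowest for 1, while CR male 5 was the lowest for 17. CR male 2 also had the highest monocyte marker mean of the CR males, 0.52 against -0.17 to 0.09 in the other 4. Without CR male 2, 32 of the 42 genes were lower in CR males, in place of 24, and the median was -0.058. The differences in males were then -0.57 for Atp6v1b2, -0.51 for Ctsz and -0.26 for Laptm4b, with 0 genes passing the adjusted test in limma. A fit over all arrays with the monocyte mean as a covariate, given below, had 31 of the 42 genes lower in CR males. What part the monocyte markers had in the levels of CR male 2 was not tested.

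The difference of the diet effects between the sexes passed for 0 of 42 genes (0% of all features). At an unadjusted p under 0.05, 0 of the genes were above 0 (against 2.13% of features) and 0 below (against 2.64%). Between the sexes themselves, averaged over diets, 33 of 42 genes were lower in males, with a median of -0.069 against -0.002 over all features. Again 0 genes passed, against 0.0722% of features, while 5 were lower in males at an unadjusted p under 0.05 (11.9%, against 4.04%) and 0 higher (against 4.46%). The 4 with the smallest p were Atp6v1b2 at -0.26 ± 0.09, Ctsz at -0.27 ± 0.11, Ctss at -0.16 ± 0.07 and Atp6v1f at -0.13 ± 0.06, with adjusted p in limma of 0.532, 0.538, 0.551 and 0.576. In the other direction, Ctsc differed by 0.12 ± 0.06 and Ctsl by 0.32 ± 0.18, higher in males, with adjusted p of 0.589 and 0.624 in limma. The second kept probes gave -0.03 for Atp6v1b2, -0.20 for Ctss and 0.13 for Ctsl, so those of Atp6v1b2 and Ctsl disagreed in size.

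Within groups, the lysosomal genes did not vary as 1 block. Over the 861 pairs of genes, the median Pearson's r of deviations from the group means was 0.14, with 83 pairs above 0.5 and 7 below -0.5, given here as a description. The highest r was 0.94 between Ctsb and Ctsd, followed by 0.84 between Ctsb and Atp6v1e1, a V1 stalk gene, and 0.79 between Npc2 and Psap. Ctsl went the other way from several genes, with r of -0.76 with Ctsz, -0.68 with Atp6v0e1 and -0.64 with Ctss. The 10 named features whose deviations were most like those of Ctsb over 22 arrays were Gda, Hagh, Ranbp10, Tmod1, Alas2, Ncoa4, Bnip3l, Emb, Ybx3 and Hemgn, with r of 0.987 to 0.969. Alas2, the first enzyme of haem synthesis in red cell precursors, is 1 of the red cell markers used below, and Hemgn encodes a nuclear protein of the blood-forming lineage.

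The deviations of each gene were set against the mean of each of 9 lists of blood cell markers over 23 arrays, 378 relations in all, with 100000 permutations of arrays within their groups and adjustment over the 378. At an adjusted p under 0.05 for Pearson's r, 8 relations of 7 genes passed. The red cell precursor markers went with Ctsb (r = 0.97, rho = 0.91 over 22 arrays, permutation p = 1e-05 for both, the smallest the permutations can give, adjusted 0.0013), with Ctsd (r = 0.91, rho = 0.85, permutation p = 1e-05, adjusted 0.0013) and with Atp6v1e1 (r = 0.87, rho = 0.84, permutation p = 2e-05 and 3e-05, adjusted 0.0019 and 0.0028). Without CR female 5 and control female 4, the 2 arrays farthest from the median of these markers, r was 0.94 for Ctsb, 0.80 for Ctsd and 0.72 for Atp6v1e1. The red cell marker mean itself differed by 0.86 ± 0.68 in males and -0.29 ± 0.64 in females between the diets, the same directions as Ctsb. Ctsd and Atp6v1e1 lay above 0 in males, at 0.383 ± 0.316 and 0.039 ± 0.110. In females they also lay above 0, at 0.072 ± 0.301 and 0.046 ± 0.105, or at -0.242 and -0.058 without CR female 5. The Ctsb value of females lacks CR female 3, an array that the red cell marker mean includes. With this mean as a covariate, a setting added after the values were seen, the difference of Ctsb in males was 0.05 in place of 0.60. Since Ctsb followed this mean so closely within groups (r = 0.97), such a fit leaves little of Ctsb to compare. The part of red cells in the Ctsb difference was not tested.

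The monocyte markers went with 3 genes: Psap (r = 0.81, rho = 0.79, adjusted permutation p of 0.003 and 0.0083), Npc2 (r = 0.77, rho = 0.69, adjusted permutation p of 0.015 and 0.07) and Grn (r = 0.72, rho = 0.66, adjusted permutation p of 0.032 and 0.1). For Npc2 and Grn the rank correlation did not pass after adjustment, whereas Atp6v0c passed by rank alone (r = 0.63, rho = 0.69, adjusted permutation p of 0.063 and 0.037). For Psap, Npc2 and Grn without the 2 farthest arrays r was 0.77, 0.73 and 0.67. The monocyte marker mean was lower in CR females by -0.26 ± 0.13 and higher in CR males by 0.12 ± 0.13. All 12 measured markers were lower in CR females and 1 of 12 in CR males. In CR females the lower marker mean went with lower Psap and Grn. In CR males the marker mean was higher, but Psap differed by -0.26 ± 0.21 and Grn by -0.04 ± 0.14. In a fit with the monocyte mean as a covariate, 27 of 42 genes were lower in females, in place of 32. At an unadjusted p under 0.05 in limma, 1 was lower, in place of 6. Males went the other way, with 31 lower in place of 24, and 6 in place of 4 at that level. When both sexes were averaged, 26 were lower in place of 29, and 7 at that level with or without the covariate. The covariate also gave 3 higher genes at that level in females and 2 on that average, in place of 0 for each. In females Grn then differed by -0.15, Ctsh by -0.24, Atp6v0d1 by -0.15 and Laptm4b by -0.16. Psap and Grn followed the monocyte mean within groups (r = 0.81 and 0.72), so such a fit leaves less of them to compare. The part of monocytes in these differences was not tested.

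Atp6v1g3 went with the B cell markers (r = 0.87, rho = 0.83, permutation p = 1e-05 for both, adjusted 0.0013) and against the T cell markers (r = -0.75, rho = -0.67, adjusted permutation p of 0.015 and 0.072). Without the 2 farthest arrays r was 0.82 and -0.67. The B cell marker mean ran from -0.11 to 0.65 in control males and from -0.61 to 0.12 in CR males, a difference of -0.43 ± 0.17, and differed by -0.28 ± 0.16 in females. All 9 measured B cell markers were lower in CR males and 7 of 9 in CR females. A fit with the B cell mean as a covariate was added after the values were seen. It had 23 of 42 genes lower in males, in place of 24, and 31 in females, in place of 32. When both sexes were averaged, 27 were lower, in place of 29. In limma, 2 were lower in males at an unadjusted p under 0.05, in place of 4, and 2 in females, in place of 6. On that average 4 were lower at that level, in place of 7. It also gave 1 higher gene at that level in males and 1 in females, in place of 0 for each. In this fit the difference of Atp6v1g3 was -0.01 in both males and the mean of the sexes, and that of Laptm4b -0.24 and -0.22. Ctsz, whose r of 0.65 with the B cell markers did not pass after adjustment, then differed by -0.14 in males and -0.10 for both sexes averaged. Atp6v1g3 followed the B cell mean closely within groups (r = 0.87), and the part of B cells in these differences and counts was not tested. In RefSeq's gene order on chromosome 13, the protein-coding neighbours of Atp6v1g3 are Ptprc, which encodes the leukocyte antigen CD45, and Nek7. With the slides removed as well as the groups, r of the 8 relations lay between 0.68 and 0.97 in size. A slide held at most 4 arrays, too few for a value within a slide.

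**Figure D3:**
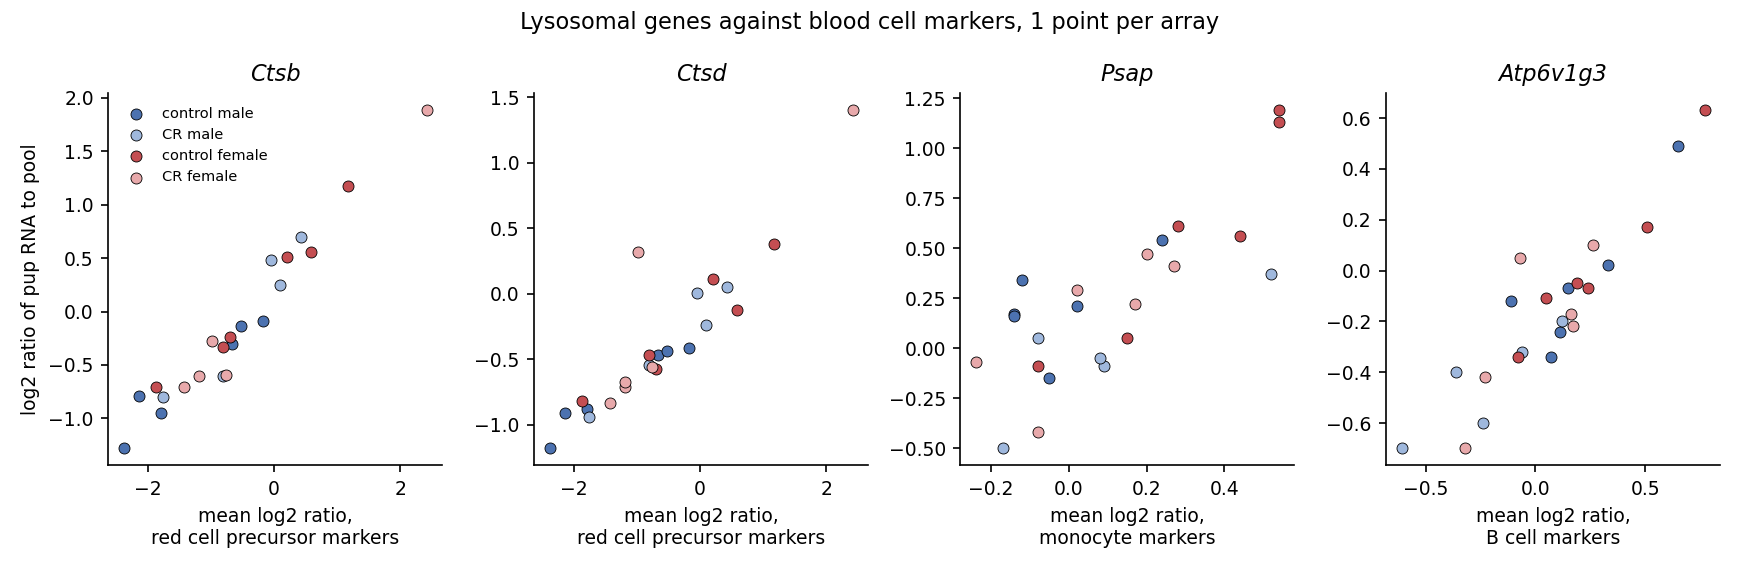
Log2 ratio of 4 lysosomal genes (y axis) against the mean log2 ratio of a blood cell marker list (x axis), 1 point per array coloured by group. Ctsb and Ctsd climb with the red cell precursor markers, CR female 5 lies at the upper right of both, and Atp6v1g3 climbs with the B cell markers.

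**Figure D4:**
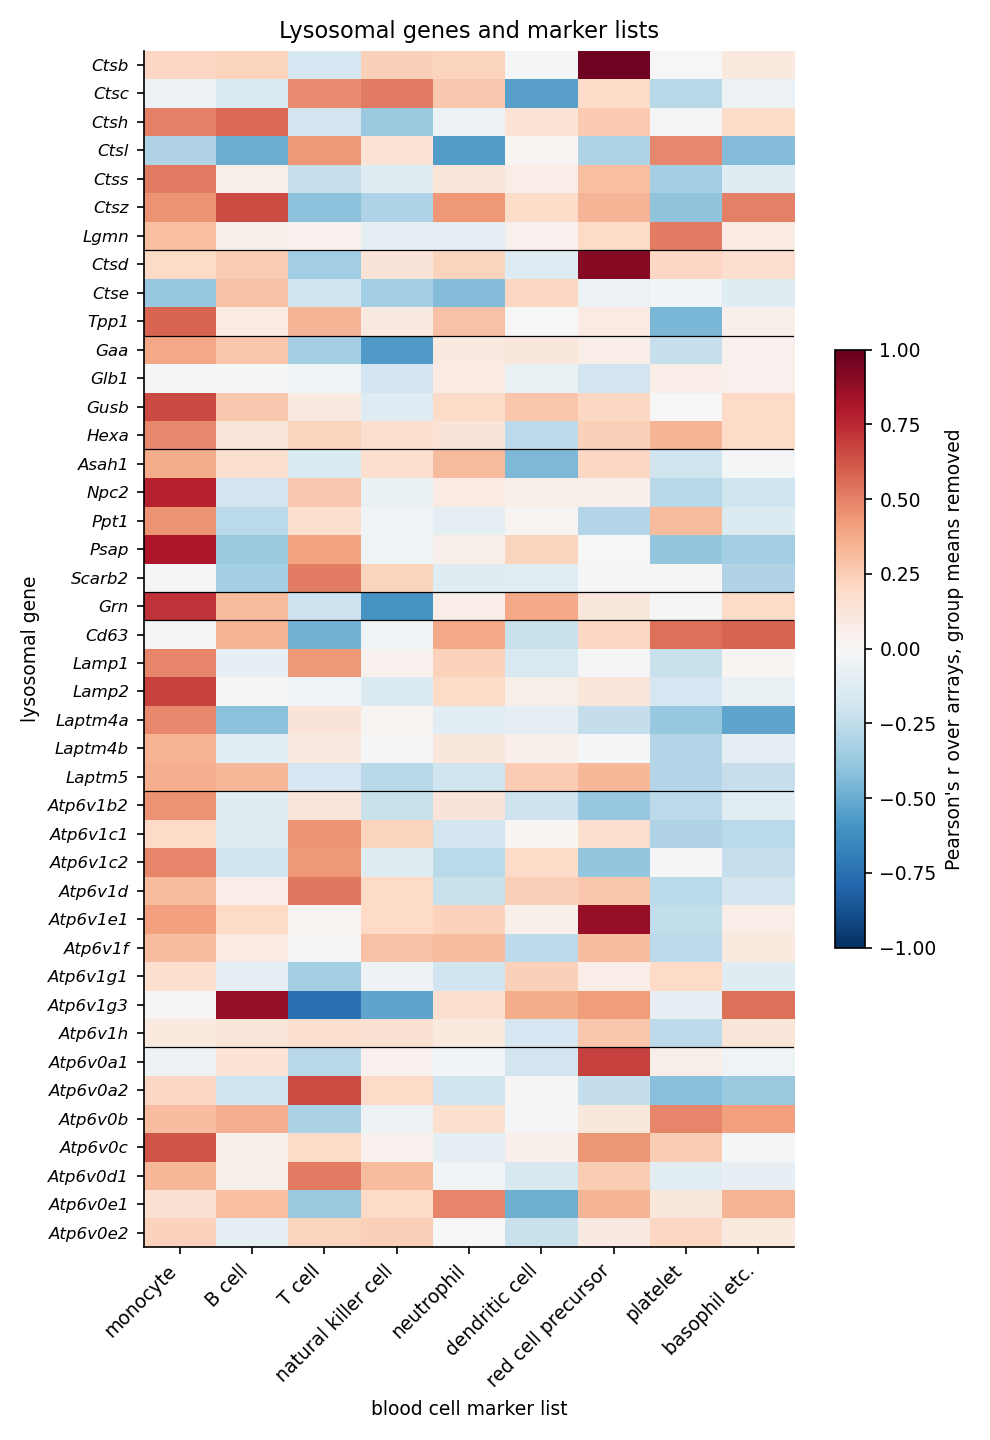
Pearson's r over the arrays, after removal of group means, between each of the 42 genes (rows, grouped by role) and 9 marker lists (columns), from -1 in blue to 1 in red. The darkest cells are Ctsb, Ctsd and Atp6v1e1 with red cell precursors, Atp6v1g3 with B cells and Psap with monocytes.

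Other genes of the lysosome were described from 5 lists beyond the rule. The lists were chosen with earlier results of these data known. Their counts are therefore a description and not a test against the share of all features. Of 28 other lysosomal hydrolases, 18 were below 0 when the sexes were averaged, 4 with an unadjusted p under 0.05 (against 4.77% of all features), and the median was -0.037. Man2b1 and Acp5, encoding a mannosidase and an acid phosphatase, were among those of smallest p below 0, with -0.21 ± 0.08 for each. Acp2 at 0.15 ± 0.10, Arsa at 0.05 ± 0.06 and Galc at 0.02 ± 0.04 had the smallest above it. Of 20 transporters and other membrane proteins, 16 were lower, 1 with an unadjusted p under 0.05 (against 4.77%), with a median of -0.034, led by Tmem175 at -0.16 ± 0.07, Sidt2 at -0.20 ± 0.10 and Slc15a4 at -0.28 ± 0.14. Vamp7 at 0.10 ± 0.06, Slc17a5 at 0.03 ± 0.05 and Cln8 at 0.02 ± 0.07 had the smallest p above 0.

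Of 22 genes that sort proteins to the lysosome, 14 were below 0, 6 with an unadjusted p under 0.05 (against 4.77%), and the median was -0.044. The adaptor gene Gga2 differed by -0.65 ± 0.12 (limma, unadjusted p = 2.6e-05, adjusted p = 0.178), followed by Vps11 at -0.15 ± 0.05 and Gga3 at -0.16 ± 0.06. Ap3b1, Sort1 and Vps33a had the smallest p above 0, with 0.11 ± 0.09, 0.05 ± 0.06 and 0.05 ± 0.06. Among 17 genes of TFEB and MTORC1 regulation the median was 0.01 and 0 reached an unadjusted p under 0.05 in either direction. Tfeb itself differed by -0.15 ± 0.07 (limma, adjusted p = 0.653), Rragc by -0.07 ± 0.08 and Mtor by -0.03 ± 0.04, and on the other side Flcn differed by 0.07 ± 0.06, Lamtor1 by 0.06 ± 0.06 and Zkscan3 by 0.08 ± 0.08. Of 8 cathepsin inhibitors, 4 were lower and 4 higher, 2 of the higher with an unadjusted p under 0.05 (against 2.95%), and the stefins, inhibitors of cysteine cathepsins, stood highest. Stfa2 differed by 0.70 ± 0.19 and Csta by 0.38 ± 0.10 (limma, unadjusted p = 0.0013 and 0.0016, adjusted p = 0.495 for both), and Cstb by 0.12 ± 0.07. Below 0 were Serpinb6a at -0.04 ± 0.08, Cst7 at -0.03 ± 0.07 and cystatin C (Cst3) at -0.09 ± 0.23. None of the genes in these 5 lists passed an adjusted p of 0.05 in any of the 5 comparisons in limma. Neutrophil markers, whose cells are rich in stefins, differed by 0.24 ± 0.16 for the mean of the sexes, and their part in the stefin values was not tested.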

How the data were processed

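RNA of 23 pups was measured on 2-colour Agilent rat arrays. Per the submitters' processing notes, the spots were read by Agilent Feature Extraction 10.5.1.1. Per the file headers, the scanner output gives each spot's intensity in both channels without normalization. It also gives, per the file headers, the log10 of Cy5 over Cy3 once the software had subtracted background and adjusted the dyes, and other columns with its flags. A value table that the authors deposited gives log2 values whose columns share a median of 7.23. How it was made is not given in the sources used here, but its differences between arrays follow the Cy5 to Cy3 ratio (r = 0.964) more than Cy5 alone (r = 0.662), and it served as an alternative.

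Mean intensities were corrected with normexp on the median local background (offset 50) and normalized by loess within arrays, with control spots at weight 0. Local backgrounds that the scanner software flagged (4.38% to 6.22% of spots) were first replaced by the array's median background, a step chosen after the values were seen. As recorded, a few reach 20100 and shrink the spread of log ratios on some arrays to 0.0275, against 0.131 to 0.19 with the step. Spots flagged as outliers (0.293% to 0.984%) were missing. Probes well above background in Cy5 on at least 50% of the arrays of 1 group were kept, with the brightest probe per gene. Gene names came from RefSeq (GRCr8) for 19688 of 41012 probes by accession, symbol or synonym, 156 kept the file's name and 21168 had none. Probe positions are those of the design on rn4, and exons or UTRs were not used here.

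Group means were fitted with limma 3.58.1 (R 4.3.3) in 1 model over all arrays, with 5 contrasts and a call at an adjusted p under 0.05. The fit was tested on simulated data. Exact permutation tests, correlations and motif counts used Python with numpy and pandas. Precision is limited by how many arrays each group has. The 4 genes of smallest p in each direction of each contrast, and genes whose probes disagree, are given in detail, and the other lists by count with the 3 of smallest p each way, except for 1 gene that is not reported here. The members and lists were chosen with earlier results of these data known. Alternatives covered the background correction, normalization, filter, probes, slide and replicate blocks, array weights, marker covariates and each array left out.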

Additional observations from a re-analysis of the deposited data

Results flagged for a closer look

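Each of the 42 genes was examined in each of the 4 groups for an array standing apart by Dixon's 95% criterion, 168 examinations in all. It was met 10 times (5.95%), and chance alone meets it about once in 20 such groups. On CR female 5, the array with the highest red cell marker mean (2.42), Ctsb read 1.88 against -0.28 for the next array of its group, Atp6v0a1 read 0.42 against 0.12 and Atp6v0c read 0.63 against 0.23. On CR female 6, Atp6v1d read -0.41 against 0.06 and Atp6v1h read -0.19 against -0.02. On control female 3, Atp6v0c read 0.61 against 0.37 and Lamp1 read 0.52 against 0.28. Glb1 read 0.32 on CR female 2 against -0.01, Atp6v0b read -0.07 on control male 3 against 0.39, and Laptm5 read 0.22 on CR male 2 against -0.09, in a group of 4 arrays with a value. No gene moved one way in every CR male and the other way in every CR female, and no difference of the diet effects between the sexes passed the test.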

How the results depend on the processing

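Results were recomputed under 40 other settings, 23 of them leaving out 1 array each. The number of genes called stayed 0 in all 5 comparisons under each of them, with a smallest adjusted p of 0.0635 (Laptm4b, mean of the sexes, without CR male 2). Without CR male 2, 3 features of the whole array were called in males and 3 for the mean of the sexes, none of them among the 42 genes. Of 40 pairs of a named gene and a comparison, 32 kept their sign throughout, but of all 210 pairs of a gene and a comparison only 94 did. Median centring moved the medians to -0.223, -0.182 and -0.185 in males, females and their mean, and turned Laptm5 (-0.105), Atp6v1c1 (-0.078) and Lamp2 (-0.049) in males and Atp6v1g1 (-0.092), Ppt1 (-0.083), Lamp2 (-0.055) and Ctsc (-0.098) for the mean of the sexes. The cause was not tested. With the monocyte mean as a covariate the median difference of the diet effects was -0.062, and with the B cell mean, a covariate added after the values were seen, Ctsl in females was -0.048. Leaving out 1 array, the median ran from -0.058 to 0.003 in males, -0.090 to -0.058 in females, -0.061 to -0.026 for the mean, -0.009 to 0.067 for the difference of the diet effects and -0.095 to -0.056 between the sexes, and the number of genes lower in CR pups from 21 to 32 of 42 in males and 28 to 33 in females. Without CR female 5 and control female 4, also added later, 24 of 42 were lower in males and 35 in females. The labels do not say whether same-numbered pups are paired. Over 33 same-numbered pairs the median r of deviations was 0.093 (-0.40 to 0.46), against -0.023 for other pairs across groups. Of the same-numbered pairs 15 exceeded 0.1, and 2 of 23 arrays correlated best with their own number. These correlations cannot show whether pups shared a litter or handling. With a replicate block the number called stayed 0, and the median was -0.027 for males, -0.076 for females and -0.044 for both averaged.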
